A study of Homo sapiens with 18 samples.

Results

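The 31 genes described here make cholesterol and fatty acids or control how much of each is made. They were taken by symbol from the deposited count tables, where each of the 31 had 1 entry among 58336 gene identifiers, and they were followed after knockdown of FLI1 in 3 Ewing sarcoma cell lines. Values given as 3 log2 fold changes follow the order TC-32, TC-71, A673 throughout. The members fall into 18 enzymes of sterol synthesis, 8 enzymes of fatty acid synthesis and 5 genes of sterol control and transport. RNA sequencing was done on TC-32, TC-71 and A673, lines of a bone and soft-tissue tumour in which EWSR1 is fused to FLI1. Each line was transfected with 20 nM of 1 small interfering RNA against FLI1 (siFLI1), by which the study depleted the fusion, or with 20 nM of a negative control (siNeg). All 6 groups kept the fusion gene, held 3 libraries each and stood for 1 established line, so 18 libraries were compared. TC-32 and TC-71 were grown in RPMI and A673 in DMEM, both with serum, so line and medium cannot be told apart. The time after transfection, 48 h, is given with the TC-32 and TC-71 libraries and not with those of A673. ES-5838 cells and siERG, which the series also names, were not analysed here.

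Cholesterol is built from acetyl-CoA through mevalonate, isoprenoid diphosphates, squalene and lanosterol. Fatty acids are built from the same acetyl-CoA by carboxylation, by the fatty acid synthase and then by elongases and desaturases. Both branches are controlled by the SREBP transcription factors, membrane proteins made from SREBF1 and SREBF2. When sterols are scarce, SCAP escorts them from the endoplasmic reticulum to be cut and released to the nucleus, where they bind sterol regulatory elements together with NF-Y. When sterols are plentiful, INSIG proteins hold SCAP back. SREBF1 products are best known for the fatty acid genes and the SREBF2 product for the sterol genes.

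The promoters are shown because the members are known as shared targets of SREBP and NF-Y. RefSeq promoter windows (GRCh38.p14), from 250 bases before to 50 bases after a transcription start, were found for 27 of the 31 members, in 37 windows. None was found for ACAT2, FDFT1, SQLE and FASN. Both strands were searched for a sterol regulatory element core (CACCCCAC), the NF-Y box (CCAAT), an E-box (CACGTG) and an ETS core (CCGGAAG), and matches of different motifs that overlap were each counted. The NF-Y box stood in 25 of the 37 member windows (67.6%), against 34.6% of all 35116 windows. By gene, it stood in 13 of 15 sterol enzymes, 5 of 7 fatty acid enzymes and 3 of 5 control genes with a window. The share by gene was 39.7% over all 27305 genes with a window. The sterol element core stood in 1 member window, that of SREBF2, and in 2.79% of all windows. The E-box stood in 5 member windows (13.5%, against 7.26% of all), and the ETS core in 4 (10.8%, against 10.3% of all). Only these exact letters were searched, so a window without a match may still hold a variant of the motif. A match describes the letters only, and no binding was measured.

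Below are 200 bases before the start of the SREBF2 promoter, with its sterol element core, and of 5 members whose values are given further on. The SREBF2 promoter was chosen by its motif and the other 5 after the expression values were known. Each reads 5′ to 3′ on the strand of its gene, and the capitals mark the NF-Y box, which reads ATTGG where it lies on the other strand, and the sterol element core.
SREBF2: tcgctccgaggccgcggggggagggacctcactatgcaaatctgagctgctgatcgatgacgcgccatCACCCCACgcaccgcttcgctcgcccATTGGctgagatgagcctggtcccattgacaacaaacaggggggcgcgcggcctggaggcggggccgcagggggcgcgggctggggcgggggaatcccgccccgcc
EBP: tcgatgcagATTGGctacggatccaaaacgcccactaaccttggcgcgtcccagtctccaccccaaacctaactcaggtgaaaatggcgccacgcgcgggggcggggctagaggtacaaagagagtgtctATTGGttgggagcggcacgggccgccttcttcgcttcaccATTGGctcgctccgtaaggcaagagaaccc
HSD17B7: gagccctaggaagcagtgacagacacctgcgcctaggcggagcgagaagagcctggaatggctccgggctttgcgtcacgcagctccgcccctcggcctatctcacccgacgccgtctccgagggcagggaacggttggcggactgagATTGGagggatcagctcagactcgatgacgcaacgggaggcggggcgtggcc
SCD: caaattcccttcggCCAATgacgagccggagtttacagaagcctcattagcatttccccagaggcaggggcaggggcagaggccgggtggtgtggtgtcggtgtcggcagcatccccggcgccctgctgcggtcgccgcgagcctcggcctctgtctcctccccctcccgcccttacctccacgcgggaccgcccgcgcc
FADS1: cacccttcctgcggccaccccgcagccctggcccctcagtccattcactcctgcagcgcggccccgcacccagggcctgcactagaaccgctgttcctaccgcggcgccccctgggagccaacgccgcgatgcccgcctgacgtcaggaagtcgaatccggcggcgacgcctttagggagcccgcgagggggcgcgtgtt
INSIG1: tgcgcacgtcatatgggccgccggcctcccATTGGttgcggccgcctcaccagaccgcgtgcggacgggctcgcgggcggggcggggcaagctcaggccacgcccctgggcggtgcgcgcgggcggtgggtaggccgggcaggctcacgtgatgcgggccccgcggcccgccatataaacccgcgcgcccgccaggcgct
These lie at chr22:41832905-41833104 (plus strand), chrX:48521608-48521807 (plus), chr1:162790502-162790701 (plus), chr10:100347033-100347232 (plus), chr11:61817004-61817203 (minus) and chr7:155297678-155297877 (plus). The EBP stretch held 3 NF-Y boxes, those of HSD17B7, SCD, INSIG1 and SREBF2 held 1 each, and that of FADS1 held 0. A RefSeq start need not be the outermost start of the GENCODE gene model given further on.

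Library totals spanned 24102487 to 33669271 counts for TC-32, 19685354 to 37234528 for TC-71 and 114564479 to 120993595 for A673. The share of counts from mitochondrial genes was 6.81% to 10.6%. Levels are given as CPM, TMM-scaled counts-per-million. FLI1, the target, held 45.3, 47.7 and 42.8 CPM with siNeg and 21.7, 22.01 and 22.6 CPM with siFLI1 in TC-32, 52.0, 52.8 and 47.95 CPM with siNeg and 17.2, 17.7 and 19.9 CPM with siFLI1 in TC-71 and 76.3, 76.7 and 75.2 CPM with siNeg and 18.3, 17.99 and 17.7 CPM with siFLI1 in A673, and fell in every line. Its means were 45.2 ± 2.46 to 22.1 ± 0.465 CPM (SD, n = 3 per group), 50.9 ± 2.61 to 18.3 ± 1.43 CPM and 76.1 ± 0.762 to 17.99 ± 0.280 CPM. Its log2 fold changes were -1.03, -1.47 and -2.08, so the knockdown was not of equal depth in the lines. Summed over 6 Ewing sarcoma markers (CD99, NKX2-2, NR0B1, STEAP1, CCND1 and PAX7), siNeg libraries held 1729 to 1826 CPM (TC-32), 1928 to 1984 (TC-71) and 2488 to 2584 (A673). CD99 had at most 3 counts in every TC-71 library, so the TC-71 sums rest on the other 5 markers. CD99 is pseudoautosomal, and the second entries of the 45 pseudoautosomal genes held 0 counts for TC-71. They held 98217 counts for TC-32 and 433530 for A673. The low CD99 count is therefore not read as absence of CD99, and the part of the counting in it was not tested. The same sums in siFLI1 libraries were 383 to 394, 403 to 447 and 973 to 987 CPM. A set of 6 adipocyte markers (ADIPOQ, PLIN1, LEP, CIDEC, FABP4 and PPARG) was summed too. These markers reached at most 3.48 CPM in any library: 0.0421 to 0.113 with siNeg and 2.91 to 3.48 with siFLI1 for TC-32, 0.798 to 1.19 and 0.841 to 1.19 for TC-71, and 0.0655 to 0.166 and 0.834 to 1.04 for A673. Within them, FABP4 rose in TC-32 (0 to 1 counts per library with siNeg, 71 to 98 with siFLI1) and in A673 (0 to 1 with siNeg, 33 to 52 with siFLI1). PPARG rose in A673 (0 to 2 with siNeg, 50 to 67 with siFLI1), while ADIPOQ and LEP had at most 3 counts in every siFLI1 library. The part of this rise in the results on the members was not tested. Nothing in the labels says that the 3 libraries of a group came from separate cultures, so the p-values measure the spread between these libraries, which may be technical.

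Most of the 31 members were lower after FLI1 knockdown in TC-32 and TC-71, and the fatty acid enzymes had the more negative median in both. In A673 the changes were small apart from a few genes. All 31 members passed the low-count filter and were tested in each line. With edgeR at an adjusted p under 0.05, 24 members were lower, 6 were higher and 1 did not pass in TC-32. In that line 81.3% of the 16208 genes tested passed, 40.1% as lower and 41.3% as higher, so most genes of this line pass in one direction or the other. In TC-71, 21 members were lower, 7 were higher and 3 did not pass, beside 71.9% of all genes, 35% lower and 36.8% higher. In A673, 17 were lower, 6 were higher and 8 did not pass, beside 71% of all genes, 35% lower and 36% higher. The A673 split of all calls depended on scaling: 50.7% of them were higher with TMM and 40.9% with library size alone, which moved the median of all genes from -0.0006 to -0.11. In these bulk libraries, fewer cells of a kind and less RNA per cell cannot be told apart.

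**Figure D1:**
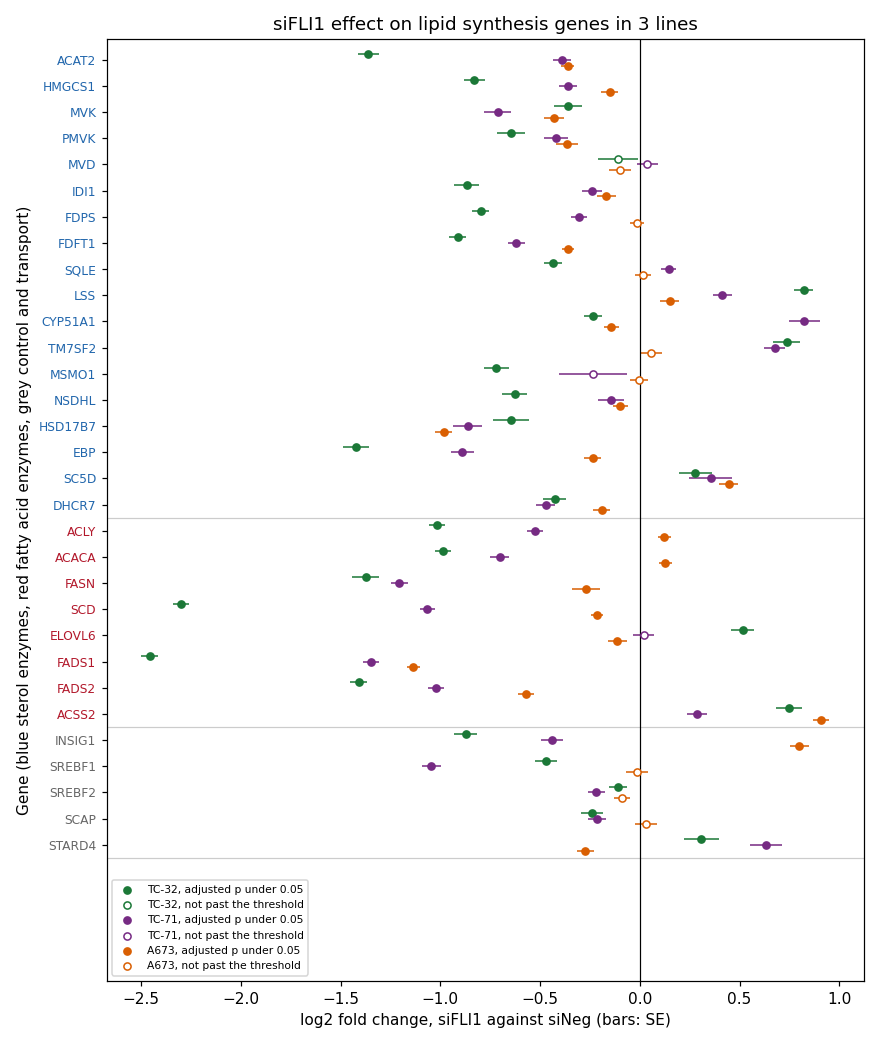
Log2 fold change of each of the 31 members (siFLI1 against siNeg, horizontal axis) in each of the 3 lines, with bars of 1 SE from 3 libraries per group. Filled points passed an adjusted p under 0.05 (edgeR). FADS1 and SCD in TC-32 lie farthest to the left, at -2.46 and -2.30, and INSIG1 is negative in TC-32 and TC-71 but positive in A673.

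The branches were then compared. Among the 8 fatty acid enzymes, 6 were lower and 2 higher in TC-32, 6 lower and 1 higher in TC-71, and 5 lower and 3 higher in A673. Their median log2 fold change was -1.20, -0.86 and -0.17 in those lines. Among the 18 sterol enzymes, 14 were lower and 3 higher in TC-32, 11 lower and 5 higher in TC-71, and 11 lower and 2 higher in A673. Their median was -0.64, -0.27 and -0.15, while the median of all genes tested was 0.02, 0.02 and -0.0006. The fatty acid median was therefore below the sterol median by 0.56 in TC-32 (a difference of -0.56) and by 0.59 in TC-71 (-0.59), and the A673 difference was -0.02. A fall of at least 2-fold was seen for 5 of 8 fatty acid enzymes and 2 of 18 sterol enzymes in TC-32, for 4 and 0 in TC-71, and for 1 and 0 in A673, beside 15.6%, 9.38% and 9.77% of all genes tested. These are descriptions of chosen lists, with no test of one list against the other. In A673, library size alone gave 1 sterol enzyme and 1 fatty acid enzyme as higher, 15 sterol enzymes as lower, and medians of -0.26 and -0.27. Without A673 siFLI1 replicate 2, siNeg replicate 2 or siNeg replicate 3, 1 sterol enzyme was higher there.

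Summed CPM gave the same order of the branches as the medians, but with a gap in A673 that the medians barely showed. The sums are given as siNeg, siFLI1 and the percent of siNeg left. The fatty acid sum of TC-32 was 4113 ± 70.1 CPM with siNeg and 1451 ± 41.8 CPM with siFLI1 (SD, n = 3 per group), or 35.3%. For TC-71 the sums were 8080 ± 179 and 3901 ± 111 CPM (48.3%), and for A673 5277 ± 52.1 and 4112 ± 98.5 CPM (77.9%). The sterol sums were 1602 ± 13.2 and 1191 ± 17.0 CPM for TC-32 (74.3%), 2735 ± 29.3 and 2370 ± 7.74 CPM for TC-71 (86.7%), and 2954 ± 21.1 and 2736 ± 20.1 CPM for A673 (92.6%). SCD was the largest part of the siNeg fatty acid sum in each line, with 25.6% (TC-32), 38.0% (TC-71) and 34.7% (A673), so these sums follow the abundant genes. The mean over genes weighs them equally: per siFLI1 library, the mean log2 change of the fatty acid enzymes was -1.04, -1.02 and -1.05 in TC-32, -0.67, -0.70 and -0.72 in TC-71, and -0.17, -0.12 and -0.14 in A673. For the sterol enzymes it was -0.47, -0.46 and -0.48, then -0.17, -0.17 and -0.20, then -0.17, -0.16 and -0.15. The libraries of a group lay close together. By this mean the branches stood apart in TC-32 and TC-71 but overlapped in A673, so the A673 comparison depended on the measure.

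**Figure D2:**
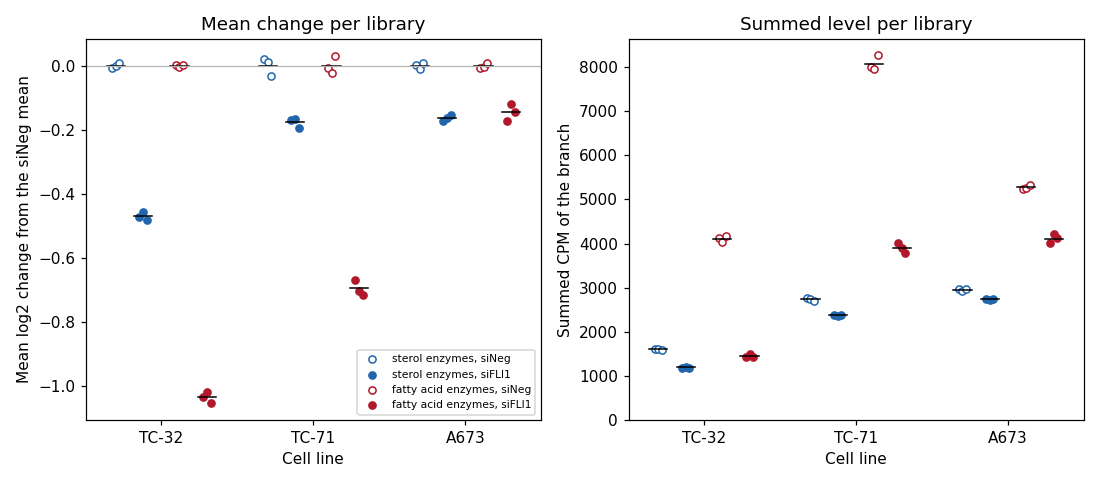
Left, mean log2 change of the sterol enzymes and of the fatty acid enzymes in each library, against the siNeg mean of its line. Right, summed CPM of each branch in each library. Each point is 1 library. In the left panel, the fatty acid points of siFLI1 lie near -1.0 in TC-32 and near -0.7 in TC-71, below the sterol points. Both lie between -0.12 and -0.17 in A673.

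The first steps of the sterol branch make mevalonate and turn it into isoprenoid diphosphates. ACAT2, the cytosolic thiolase that joins acetyl-CoA units, fell with log2 fold changes of -1.36, -0.39 and -0.36. HMGCS1, the synthase of the next step, fell by less in each line, with -0.83, -0.36 and -0.15. The mevalonate kinase MVK (ENSG00000110921.13, chromosome 12, 109573255 to 109598125, plus strand) held 31.99, 27.9 and 32.6 CPM with siNeg and 23.3, 24.1 and 24.7 CPM with siFLI1 in TC-32. In TC-71 it held 41.8, 44.9 and 44.1 CPM with siNeg and 27.4, 28.6 and 24.1 CPM with siFLI1, and A673 libraries 58.4, 59.2 and 57.3 CPM with siNeg and 40.4, 46.2 and 43.2 CPM with siFLI1. No siFLI1 library reached a siNeg library of its line, and the fall was largest in TC-71, at 61.2% of siNeg, a log2 fold change of -0.71 with an SE of 0.0674 (edgeR adjusted p = 1.22e-10). TC-32 gave a log2 fold change of -0.36 with an SE of 0.0704 (edgeR adjusted p = 5.78e-05), and A673 gave a log2 fold change of -0.43 with an SE of 0.0481 (edgeR adjusted p = 1.61e-06). The next kinase, PMVK, fell as well (-0.65, -0.42 and -0.37). MVD, the decarboxylase that follows, passed in none of the 3 lines by edgeR (log2 fold changes of -0.11, 0.038 and -0.10, unadjusted p of 0.286, 0.457 and 0.104), and its siFLI1 and siNeg libraries overlapped. MVD passed as lower without siFLI1 replicate 2 of TC-32 (-0.24) or of A673 (-0.17), and in A673 with library size alone (-0.21) or no filter (-0.11). IDI1, the isomerase, fell in each line (-0.87, -0.24 and -0.17). FDPS, which makes farnesyl diphosphate, fell in TC-32 (-0.80) and TC-71 (-0.30) and was at -0.015 in A673, not past the threshold, where library size alone gave a fall of -0.12.

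Squalene and lanosterol come next, and here the direction turned within a few steps. FDFT1, the squalene synthase, held 205, 209 and 201 CPM with siNeg and 108, 112 and 106 CPM with siFLI1 in TC-32. TC-71 libraries held 291, 292 and 299 CPM with siNeg and 199, 185 and 191 CPM with siFLI1, and A673 libraries 263, 262 and 263 CPM with siNeg and 208, 201 and 205 CPM with siFLI1. The 2 siRNA groups were far apart in every line, with 53.1%, 65.1% and 77.9% of siNeg left. TC-32 gave a log2 fold change of -0.91 with an SE of 0.0436 (edgeR adjusted p = 8.67e-16). TC-71 gave a log2 fold change of -0.62 with an SE of 0.0422 (edgeR adjusted p = 7.97e-14), and A673 gave a log2 fold change of -0.36 with an SE of 0.0319 (edgeR adjusted p = 1.21e-07). SQLE, the squalene epoxidase, fell in TC-32 (-0.43), rose in TC-71 (0.14) and was at 0.016 in A673, not past the threshold, where library size alone gave -0.093. LSS, the lanosterol synthase, rose in each line, with 0.82, 0.41 and 0.15. In A673 the LSS groups overlapped. The LSS call there was lost without siFLI1 replicate 2, siNeg replicate 2 or siNeg replicate 3, and with library size alone. Its adjusted p ran from 1.36e-06 to 0.477 over all alternatives (edgeR, DESeq2 and limma-voom fits). So the enzyme that makes squalene and the one that closes the ring after it moved in opposite directions in TC-32 and TC-71.

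CYP51A1, which removes a methyl group from lanosterol, and SQLE were the sterol enzymes that passed in opposite directions in different lines. CYP51A1 held 135, 134 and 135 CPM with siNeg and 121, 109.8 and 113 CPM with siFLI1 in TC-32 and fell, with a log2 fold change of -0.23 with an SE of 0.0467 (edgeR adjusted p = 6.74e-05). With TC-71, CYP51A1 had 15.2, 13.3 and 13.6 CPM with siNeg and 25.4, 25.3 and 24.1 CPM with siFLI1 and rose, with a log2 fold change of 0.82 with an SE of 0.0770 (edgeR adjusted p = 9.46e-11). In A673 it held 192, 201 and 203 CPM with siNeg and 188, 172 and 179 CPM with siFLI1, with a log2 fold change of -0.14 with an SE of 0.0394 (edgeR adjusted p = 0.00504). The TC-71 level was low in both groups beside the other lines. TC-71 was quantified with another counter, and 68.2% of the CYP51A1 exon bases are shared with another gene on the same strand in GENCODE release 44. The part of that overlap in the low level and in the rise was not tested.

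Among the reductases and demethylation enzymes after lanosterol, TM7SF2 rose and HSD17B7 fell. TM7SF2, a sterol reductase, held 24.5, 25.7 and 26.7 CPM with siNeg and 40.3, 45.8 and 41.8 CPM with siFLI1 in TC-32, with a log2 fold change of 0.74 with an SE of 0.0659 (edgeR adjusted p = 2.36e-10). The TC-71 libraries had 43.0, 44.4 and 45.2 CPM with siNeg and 71.7, 71.7 and 68.5 CPM with siFLI1, with a log2 fold change of 0.68 with an SE of 0.0533 (edgeR adjusted p = 2.22e-12). Its A673 libraries overlapped, at 23.3, 24.6 and 25.7 CPM with siNeg and 23.9, 26.9 and 25.6 CPM with siFLI1, with a log2 fold change of 0.056, not past the threshold. MSMO1, the methylsterol oxidase, fell in TC-32 (-0.72), and was at -0.24 in TC-71 and -0.0044 in A673, not past the threshold in either. It passed in TC-71 without siNeg replicate 3 (-0.37) and with limma-voom (-0.21), and in A673 with library size alone (-0.11). NSDHL, the dehydrogenase of the same demethylation, fell by 0.63 in TC-32. Its smaller values passed too, at -0.15 in TC-71 (edgeR adjusted p = 0.047, 0.022 to 0.252 over all alternatives) and -0.10 in A673 (0.032, 1.82e-04 to 0.118). Its TC-71 call was lost without any 1 of the 3 siFLI1 replicates or siNeg replicate 1, and its A673 call without siFLI1 replicate 2 or 3 or any 1 siNeg replicate. HSD17B7, the keto-reductase that acts with NSDHL, held 13.0, 13.8 and 13.4 CPM with siNeg and 8.70, 8.53 and 8.46 CPM with siFLI1 in TC-32. In TC-71 it held 34.1, 32.5 and 31.1 CPM with siNeg and 18.9, 16.6 and 18.2 CPM with siFLI1, and A673 libraries 39.4, 38.8 and 38.4 CPM with siNeg and 20.1, 19.2 and 19.6 CPM with siFLI1. By point estimate it fell most in A673, where 50.6% of siNeg was left, a log2 fold change of -0.98 with an SE of 0.0421 (edgeR adjusted p = 3.22e-11). TC-32 gave a log2 fold change of -0.65 with an SE of 0.0879 (edgeR adjusted p = 3.34e-07), and TC-71 gave a log2 fold change of -0.86 with an SE of 0.0714 (edgeR adjusted p = 6.65e-12). Reads of HSD17B7 can be split with a near-identical copy, HSD17B7P2, whose counts were 45 to 63 with siNeg and 115 to 137 with siFLI1 for TC-32, 0 to 5 and 0 to 3 for TC-71, and 306 to 414 and 240 to 285 for A673, so the HSD17B7 values are uncertain.

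The last steps turn the sterol nucleus into cholesterol. EBP, the sterol isomerase (ENSG00000147155.10, chromosome X, 48521799 to 48528716, plus strand), held 45.0, 48.4 and 50.6 CPM with siNeg and 18.6, 17.4 and 17.7 CPM with siFLI1 in TC-32, with a log2 fold change of -1.42 with an SE of 0.0664 (edgeR adjusted p = 5.33e-16). TC-71 libraries held 117, 105 and 118 CPM with siNeg and 67.0, 58.8 and 57.8 CPM with siFLI1, with a log2 fold change of -0.89 with an SE of 0.0575 (edgeR adjusted p = 8.10e-14). In A673 it held 86.8, 81.8 and 82.0 CPM with siNeg and 66.9, 73.0 and 72.8 CPM with siFLI1, with a log2 fold change of -0.24 with an SE of 0.0440 (edgeR adjusted p = 2.32e-04). No groups overlapped, and EBP was left at 37.3% of siNeg in TC-32, the lowest of the sterol enzymes, beside 39.0% for ACAT2. EBP shares 36.4% of its exon bases with another gene on the same strand. SC5D, the desaturase that acts after EBP, rose in each line (0.28, 0.35 and 0.44), and its TC-71 call was lost without siNeg replicate 3 (0.21, edgeR adjusted p = 0.0624, against 4.05e-04 to 0.0624 over all alternatives). DHCR7, which reduces the last ring double bond, fell in each line (-0.43, -0.47 and -0.19).

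**Figure D3:**
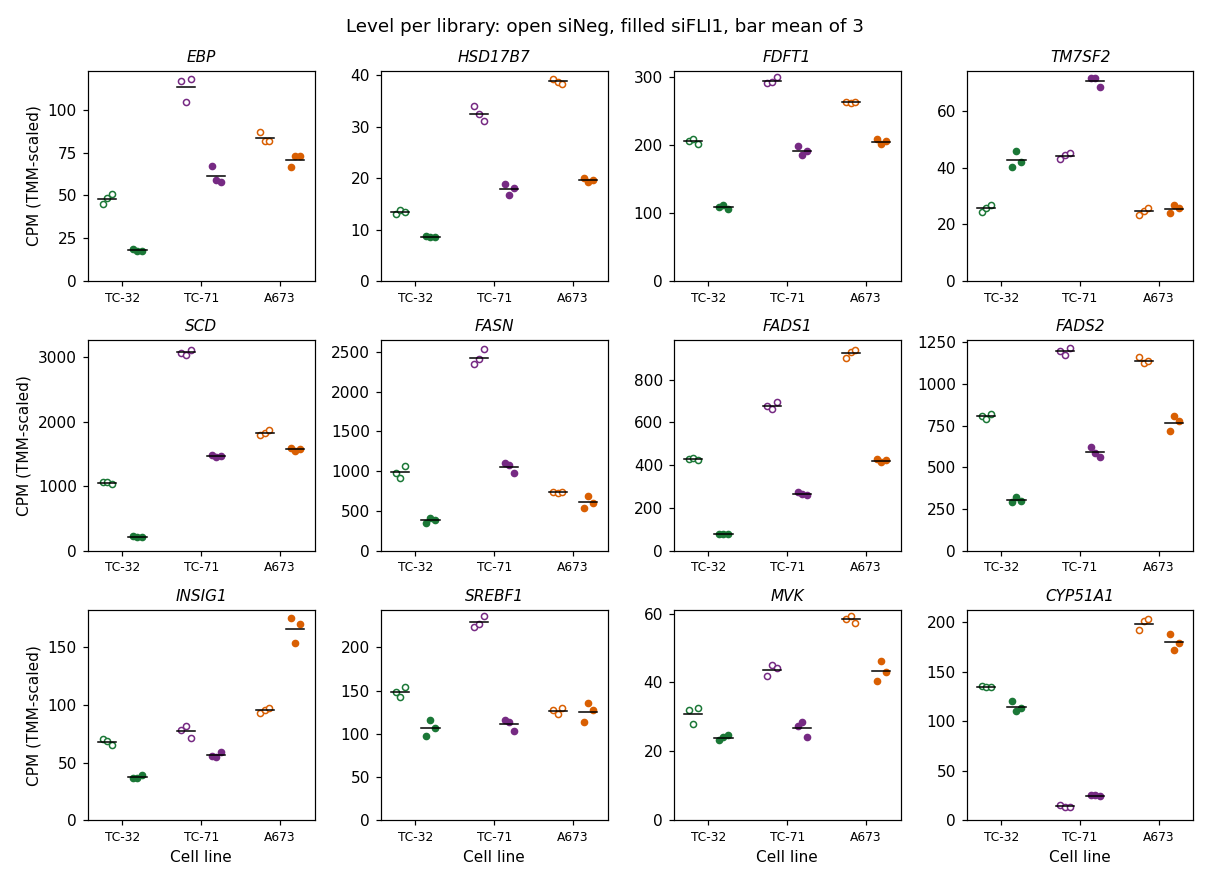
CPM of named members in every library (linear axis), siNeg beside siFLI1 in TC-32, TC-71 and A673, 3 libraries per group. FADS1, FADS2, EBP and HSD17B7 are lower in all siFLI1 libraries of each line, and INSIG1 is lower in TC-32 and TC-71 and higher in A673.

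In the fatty acid branch, ACLY, ACACA and FASN fell in TC-32 and TC-71, while ACSS2 rose. ACLY, which makes cytosolic acetyl-CoA from citrate, had log2 fold changes of -1.02, -0.53 and 0.12. ACACA, the carboxylase that commits acetyl-CoA to fatty acids, had -0.99, -0.70 and 0.13. The small rises of ACLY and ACACA in A673 did not hold with library size alone (0.01 and 0.02). FASN, the synthase itself, held 982, 909 and 1059.5 CPM with siNeg and 347, 409 and 382 CPM with siFLI1 in TC-32. The TC-71 libraries had 2342, 2404 and 2533 CPM with siNeg and 1099.8, 1076 and 981 CPM with siFLI1, and A673 libraries 734, 721 and 739 CPM with siNeg and 539, 686 and 596 CPM with siFLI1. Between 38.5% and 43.4% of siNeg remained in TC-32 and TC-71, compared to 82.99% in A673, with no overlap. TC-32 gave a log2 fold change of -1.37 with an SE of 0.0660 (edgeR adjusted p = 1.55e-09). TC-71 gave a log2 fold change of -1.21 with an SE of 0.0438 (edgeR adjusted p = 4.57e-20), and A673 gave a log2 fold change of -0.27 with an SE of 0.0697 (edgeR adjusted p = 0.00529). ACSS2, which makes acetyl-CoA from acetate and so feeds the same pool as ACLY, rose in each line (0.75, 0.29 and 0.91).

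Among the desaturases, FADS1 had the most negative value of the 31 members in each line, and SCD came next in TC-32 only. SCD, which makes monounsaturated fatty acids, held 1066, 1059.8 and 1032 CPM with siNeg and 221, 214 and 207 CPM with siFLI1 in TC-32. In TC-71 it held 3069, 3039 and 3115 CPM with siNeg and 1490.4, 1446 and 1468 CPM with siFLI1, and A673 libraries 1798, 1817 and 1872 CPM with siNeg and 1598, 1549.7 and 1577 CPM with siFLI1. SCD fell to 20.3% of siNeg in TC-32, a log2 fold change of -2.30 with an SE of 0.0398 (edgeR adjusted p = 1.50e-24). TC-71 gave a log2 fold change of -1.07 with an SE of 0.0372 (edgeR adjusted p = 7.82e-21), and A673 gave a log2 fold change of -0.22 with an SE of 0.0311 (edgeR adjusted p = 2.17e-05). FADS1 and FADS2, the front-end desaturases of polyunsaturated fatty acids, have gene models that overlap on opposite strands of chromosome 11. FADS1 (ENSG00000149485.18, chromosome 11, 61799627 to 61829318, minus strand) held 429.9, 435 and 422 CPM with siNeg and 79.7, 76.4 and 78.6 CPM with siFLI1 in TC-32. TC-71 libraries held 676, 663 and 695 CPM with siNeg and 275, 263 and 261 CPM with siFLI1, and A673 libraries 903, 931 and 941 CPM with siNeg and 428, 413 and 422 CPM with siFLI1. It was left at 18.2%, 39.3% and 45.5% of siNeg, and it was the only fatty acid enzyme that fell by at least 2-fold in each line. TC-32 gave a log2 fold change of -2.46 with an SE of 0.0428 (edgeR adjusted p = 1.67e-24). TC-71 gave a log2 fold change of -1.35 with an SE of 0.0410 (edgeR adjusted p = 2.83e-22), and A673 gave a log2 fold change of -1.14 with an SE of 0.0323 (edgeR adjusted p = 3.08e-13). FADS2 (ENSG00000134824.13, chromosome 11, 61792980 to 61867354, plus strand) held 807, 790.2 and 821 CPM with siNeg and 294, 319.7 and 297 CPM with siFLI1 in TC-32. The TC-71 libraries had 1200.2, 1176 and 1216 CPM with siNeg and 619.7, 588 and 561 CPM with siFLI1, and A673 libraries 1160.0, 1126 and 1138 CPM with siNeg and 717, 809.9 and 779 CPM with siFLI1. FADS2 fell in each line without overlap. TC-32 gave a log2 fold change of -1.41 with an SE of 0.0408 (edgeR adjusted p = 3.12e-20), TC-71 gave a log2 fold change of -1.02 with an SE of 0.0413 (edgeR adjusted p = 2.67e-19) and A673 gave a log2 fold change of -0.57 with an SE of 0.0410 (edgeR adjusted p = 1.22e-08). Opposite-strand genes cover 4.79% of the FADS1 and 4.64% of the FADS2 exon bases. ELOVL6, an elongase of saturated chains, went another way: it rose in TC-32 (0.52), was at 0.018 in TC-71, not past the threshold, and fell in A673 (-0.11). The ELOVL6 groups overlapped in A673, and its call there was lost without siFLI1 replicate 2 or 3 or siNeg replicate 2 or 3.

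The 5 control and transport genes did not move as 1 group. In TC-32 and TC-71, 4 were lower and 1 was higher, and in A673 1 was lower, 1 was higher and 3 did not pass. INSIG1, the retention factor of the SREBP and SCAP complex (ENSG00000186480.12, chromosome 7, 155297776 to 155310235, plus strand), held 70.8, 68.6 and 65.1 CPM with siNeg and 36.6, 36.4 and 38.8 CPM with siFLI1 in TC-32, with a log2 fold change of -0.87 with an SE of 0.0567 (edgeR adjusted p = 4.42e-13). In TC-71 it held 78.6, 81.4 and 71.7 CPM with siNeg and 55.8, 55.3 and 59.2 CPM with siFLI1, with a log2 fold change of -0.44 with an SE of 0.0551 (edgeR adjusted p = 3.29e-08). In A673 it held 92.9, 96.0 and 97.7 CPM with siNeg and 175, 154 and 169.7 CPM with siFLI1, with a log2 fold change of 0.80 with an SE of 0.0467 (edgeR adjusted p = 1.16e-09). Its siFLI1 libraries were thus all below siNeg in TC-32 and TC-71 and all above in A673. SREBF1, the gene of the fatty acid factor, held 149, 143 and 154 CPM with siNeg and 97.4, 116 and 107 CPM with siFLI1 in TC-32, with a log2 fold change of -0.47 with an SE of 0.0545 (edgeR adjusted p = 3.86e-08). TC-71 libraries held 224, 227.1 and 236 CPM with siNeg and 117, 114 and 103 CPM with siFLI1, with a log2 fold change of -1.05 with an SE of 0.0480 (edgeR adjusted p = 6.15e-18). In A673 its groups overlapped, at 127, 123 and 130.1 CPM with siNeg and 114, 136 and 127 CPM with siFLI1, with a log2 fold change of -0.014, not past the threshold, where library size alone gave a fall of -0.12. SREBF2, the sterol factor, had smaller values (-0.11, -0.22 and -0.09, the last not past the threshold), and its TC-32 call was lost without siFLI1 replicate 1 or 3 and with library size alone. In A673 SREBF2 passed as lower without siFLI1 replicate 2 (-0.13), with library size alone (-0.20) and, at -0.09 to -0.10, with DESeq2, RLE factors, limma-voom and both other filters. SCAP, their escort, was small as well (-0.24, -0.22 and 0.031, the last not past the threshold). STARD4, a cholesterol carrier, rose in TC-32 and TC-71 and fell in A673 (0.31, 0.63 and -0.27).

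Across the lines, 14 members were lower in all 3: ACAT2, HMGCS1, MVK, PMVK, IDI1, FDFT1, NSDHL, HSD17B7, EBP, DHCR7, FASN, SCD, FADS1 and FADS2. Of the 14233 genes tested in every line, 18.8% were lower in all 3. LSS, SC5D and ACSS2 were the 3 members higher in all 3 lines, beside 19% of all genes. Another 7, namely SQLE, CYP51A1, ACLY, ACACA, ELOVL6, INSIG1 and STARD4, passed in opposite directions in at least 1 pair of lines, beside 22.7% of all genes. Some calls behind these counts were lost in at least 1 alternative run. They were NSDHL in TC-71 and A673, SC5D in TC-71, and LSS, ACLY, ACACA and ELOVL6 in A673. The fall of FLI1 itself was deepest in A673 and shallowest in TC-32, while the fall of the fatty acid median was deepest in TC-32 and shallowest in A673. The Ewing sarcoma markers tested had median log2 fold changes of -2.56, -2.28 (without CD99) and -1.78, so by median they fell least in A673, unlike FLI1. The part of knockdown depth in the values of the members was not tested.

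Interaction contrasts fitted by edgeR over all 18 libraries asked whether a member responded to siFLI1 unequally in a pair of lines. TC-32 differed from A673 in 25 of 31 members, beside 62.1% of the 19591 genes tested, and in 20 of these the log2 fold change was more negative in TC-32 (32.2% of all genes). TC-32 differed from TC-71 in 23, beside 53.6% of genes, with 18 more negative in TC-32 (32.6% of all genes). A673 differed from TC-71 in 22, beside 51.7%. By branch, the effect differed between TC-32 and A673 for 7 of 8 fatty acid and 14 of 18 sterol enzymes. The median difference there (TC-32 minus A673) was -1.08 in log2 for the fatty acid enzymes and -0.33 for the sterol enzymes. Between A673 and TC-71 (A673 minus TC-71) it was 0.60 and 0.02, and the effect differed for 8 of 8 fatty acid and 10 of 18 sterol enzymes. SCD held the widest gap, with a TC-32 minus A673 difference of -2.05 (SE 0.0487, edgeR adjusted p = 2.10e-27). INSIG1 was the member with the largest difference among those that passed in opposite directions, at -1.64 (SE 0.0749, edgeR adjusted p = 1.43e-19) for TC-32 minus A673 and 1.20 (SE 0.0733, edgeR adjusted p = 8.18e-16) for A673 minus TC-71. For TC-32 minus TC-71 it was CYP51A1, at -1.06 (SE 0.0798, edgeR adjusted p = 1.56e-13). The part of the other counter of TC-71 and of the shared CYP51A1 exon bases in this difference was not tested. FASN did not pass between TC-32 and TC-71, with -0.17 (SE 0.111, edgeR adjusted p = 0.21), nor did HSD17B7, with 0.21 (SE 0.0979, edgeR adjusted p = 0.0705). The HSD17B7 difference did pass with DESeq2 (0.28), RLE factors (0.28), library size alone (0.27) and a mean of at least 10 counts (0.23).

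**Figure D4:**
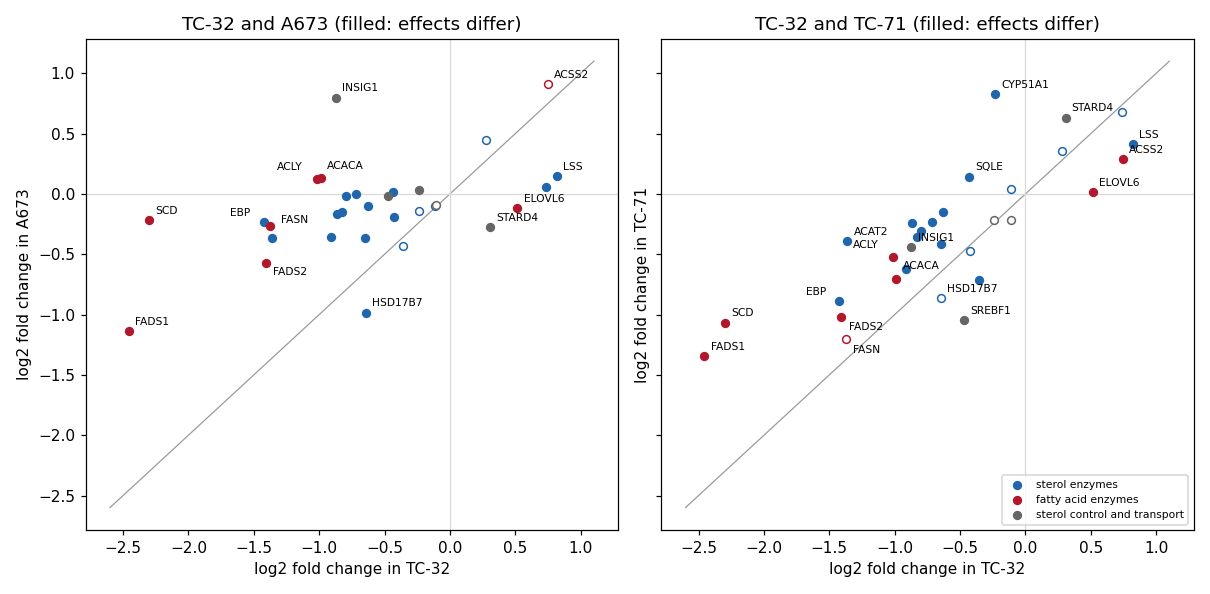
Log2 fold change of each member in TC-32 (horizontal axis) against A673 (left) and TC-71 (right), coloured by branch, with a line of equal effect. Filled points had an effect that differed between the lines (edgeR interaction, adjusted p under 0.05). SCD (-2.30 against -0.22) lies far above the line in the left panel, and INSIG1 (-0.87 against 0.80) lies in the upper left.

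Levels between genes were compared as CPM per kilobase of exon in the siNeg libraries, using GENCODE release 44 lengths, with no test. SCD was the highest of the 31 in each line, at 200.6 (TC-32), 586 (TC-71) and 349 (A673) CPM per kilobase. FASN was the next in TC-32 (106) and TC-71 (260.3), while in A673 ACAT2 (111), FADS2 (108), FADS1 (90.4) and MSMO1 (82.9) came before FASN (78.4). The highest sterol enzyme was FDPS in TC-32 (58.4), SQLE in TC-71 (118) and ACAT2 in A673. SC5D was the lowest in TC-32 (1.59) and TC-71 (1.21), and MVK in A673 (6.46). The tables were quantified separately, so the order within a line is given and no test between lines.

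Other genes of the same pathways were counted from wider lists. Of 22 further sterol genes, from MBTPS1 to the exporters ABCA1 and ABCG1, 11 were higher and 4 lower of 21 tested in TC-32, 11 and 5 of 20 in TC-71, and 13 and 5 of 22 in A673. Of 25 further fatty acid genes, 9 were higher and 15 lower of 24 tested in TC-32, 11 and 8 of 24 in TC-71, and 13 and 9 of 25 in A673. The shares of all genes that were higher and lower were 41.3% and 40.1% in TC-32, 36.8% and 35% in TC-71, and 36% and 35% in A673. Several of these counts are near them, such as 9 of 24 higher in TC-32 (37.5%) and 8 of 24 lower in TC-71 (33.3%) for the fatty acid genes. Others lay farther off, such as the 62.5% of fatty acid genes lower in TC-32. For the sterol genes, 52.4% (TC-32), 55% (TC-71) and 59.1% (A673) were higher, and 19.0%, 25% and 22.7% were lower. ABCA1, which exports cholesterol from the cell, held 14.0, 12.2 and 14.4 CPM with siNeg and 96.6, 93.6 and 85.0 CPM with siFLI1 in TC-32. The TC-71 libraries had 37.6, 34.7 and 43.3 CPM with siNeg and 94.5, 96.0 and 104 CPM with siFLI1, and A673 libraries 1.39, 1.62 and 1.66 CPM with siNeg and 45.1, 44.5 and 43.9 CPM with siFLI1. Every siFLI1 library lay above every siNeg library, and the rise was largest in A673, a log2 fold change of 4.84 with an SE of 0.0640 (edgeR adjusted p = 1.03e-16), beside 2.76 and 1.34 in TC-32 and TC-71. NPC2, which hands cholesterol out of lysosomes, rose too, with 1.57, 1.03 and 0.40. FADS3, which lies beside FADS1 and FADS2 on chromosome 11, held 11.4, 10.8 and 12.2 CPM with siNeg and 33.7, 38.4 and 38.2 CPM with siFLI1 in TC-32. In TC-71 it held 54.6, 58.9 and 57.7 CPM with siNeg and 82.7, 82.4 and 75.0 CPM with siFLI1, and A673 libraries 31.6, 30.9 and 29.2 CPM with siNeg and 73.0, 88.0 and 86.3 CPM with siFLI1. FADS3 thus rose in each line (1.68, 0.49 and 1.43) while its neighbours FADS1 and FADS2 fell. Of the 20 further sterol genes tested in every line, 3 (NUS1, LBR and RDH11) were lower in all, 4 (MBTPS1, NPC2, ABCA1 and SCP2) were higher in all, and 3 passed in opposite directions. Of the 23 further fatty acid genes, 4 (TECR, MID1IP1, ACSL3 and GPAM) were lower in all and 3 (FADS3, LPIN1 and MLXIP) were higher in all. Another 14 of these 23, among them ACACB, ELOVL5, SCD5, ACSL1 and ME1, passed in opposite directions. Over all genes the shares were 18.8% lower in all, 19% higher in all and 22.7% in opposite directions.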

How the data were processed

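The authors deposited expected counts per gene for TC-32 and A673, which the tables attribute to RSEM, and whole-number counts per gene for TC-71, attributed to Subread. None is scaled to depth. The submitters' processing notes name cutadapt 4.4, STAR 2.7.3, featureCounts, Subread 2.0.3, limma 3.38.3 and GRCh38 (hg38); the annotation release and strand setting are not given in the sources used here. The line of the TC-32 and TC-71 libraries rests on the name of their table, since their columns carry only siRNA, replicate and time.

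The 58381 entries of each table were reduced to 58336 genes by summing the 45 pseudoautosomal genes that have a second entry. Expected counts were rounded. Each line was fitted alone in R 4.3.3 with edgeR 4.0.16 (filterByExpr, TMM, robust quasi-likelihood F-test), with Benjamini-Hochberg adjustment over all genes tested. Genes with an adjusted p under 0.05 were called. Single adjusted p-values in the text come from edgeR, in these fits, in the interaction model or, where named, in an alternative run. Ranges over all alternatives also take in DESeq2 and limma-voom fits. A prior count of 0.125 shrinks the log2 fold changes. Line differences were interaction contrasts in a model of 6 groups. CPM are TMM-scaled. Library totals, given above with the results, set the precision. Gene models and coordinates are GENCODE release 44 and promoters RefSeq, read with Python 3.11.15. The fits were tested on simulated data in which 200 genes per line changed 2-fold. All of these were recovered in each line, and 6.54% (TC-32), 1.48% (TC-71) and 3.85% (A673) of the calls were false. Far more genes were called in the real data, so the simulation does not give the error rate there.

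The members and the lists were chosen with earlier results of these data known. Every member is named. Values per library are given for the 5 sterol enzymes, 4 fatty acid enzymes and 2 control genes with the largest median absolute log2 fold change among those called in at least 2 lines, and for the member with the largest opposite change in each pair of lines. Of the other pathway genes, those called alike in 3 lines with a median absolute log2 fold change of at least 1 are described. Remaining names were added after their values were seen. Replicates of a group differed with a chi-square per degree of freedom of at least 2.52, more than sampling noise. Also tried were library size alone, RLE factors, no filter, a mean of 10 counts, DESeq2 1.42.0, limma-voom (limma 3.58.1), unrounded expected counts, a replicate block, the 12 libraries of 2 lines, and leaving out each library.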

Additional observations from a re-analysis of the deposited data

Results flagged for a closer look

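These are the siFLI1 effects of the members described library by library that differed between lines by the edgeR interaction test, as differences of log2 fold changes. For TC-32 minus A673 the differences were FDFT1 -0.52, TM7SF2 0.71, HSD17B7 0.37, EBP -1.15, FASN -1.07, SCD -2.05, FADS1 -1.29, FADS2 -0.81, INSIG1 -1.64 and SREBF1 -0.42. For TC-32 minus TC-71 they were MVK 0.35, FDFT1 -0.30, CYP51A1 -1.06, EBP -0.54, SCD -1.24, FADS1 -1.11, FADS2 -0.39, INSIG1 -0.44 and SREBF1 0.57. For A673 minus TC-71 they were MVK 0.24, FDFT1 0.22, CYP51A1 -1.003, TM7SF2 -0.66, EBP 0.62, FASN 0.90, SCD 0.81, FADS1 0.17, FADS2 0.41, INSIG1 1.20 and SREBF1 0.99. Over all 31 members, 25, 23 and 22 differed in the 3 pairs of lines, beside 62.1%, 53.6% and 51.7% of all genes. The A673 minus TC-71 difference of MVK was lost without A673 siFLI1 replicate 2 (0.18), A673 siNeg replicate 3 (0.22) or TC-71 siFLI1 replicate 3 (0.16). With library size alone it was lost too (0.19), as was that of FADS1 (0.11). Where lines of a pair also differ in medium, counter or depth of knockdown, these cannot be told apart from the line.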

How the results depend on the processing

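Of the 93 log2 fold changes (31 members in 3 lines), 77 kept their side of the threshold under every alternative run, and 74 of these kept their sign too. The other 3, ELOVL6 in TC-71 and SCAP and TM7SF2 in A673, never passed and lay on both sides of 0. Library size alone gave a sterol median of -0.59 (TC-32), -0.28 (TC-71) and -0.26 (A673), a fatty acid median of -0.27 for A673, and 1 higher call each for the sterol and the fatty acid enzymes of A673. It turned SQLE in A673 to -0.093 (edgeR adjusted p = 0.0478, 0.0478 to 0.989 over all alternatives). Leaving out 1 library at a time gave sterol medians between -0.34 and -0.27 (TC-71) or -0.17 and -0.11 (A673), fatty acid medians between -0.90 and -0.84 (TC-71) or -0.19 and -0.14 (A673), and 1 to 2 higher sterol enzymes in A673. An alternative added after seeing the data kept only members with under 10% of exon bases shared, which drops ACAT2, HMGCS1, IDI1, FDPS, CYP51A1 and EBP. It left 12 sterol enzymes, of which 8 (TC-32), 6 (TC-71) and 6 (A673) were lower, with medians of -0.43, -0.19 and -0.10 over the fewer genes counted. The cause of the other moves was not tested. Replicate numbers did not pair the libraries, with correlations from -0.078 to 0.042 over 9 pairs, so the numbers are shared in name only. With the replicate block, NSDHL lost its call in TC-71 (-0.14) and A673 (-0.10) and ELOVL6 in A673 (-0.12), while MSMO1 gained one in TC-71 (-0.23).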
